A study of Mus musculus and Rattus norvegicus with 85 samples.

Results

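The alveolar type 2 surfactant genes were Sftpa1, Sftpb, Sftpc, Sftpd, Abca3, Lamp3, Cxcl15, Etv5, Lpcat1 and Slc34a2, 10 genes in all, read on whole-lung arrays of mice and rats that had inhaled chloroprene. Members were found by gene symbol in the array annotation. In the mouse, 20 probe sets carried one of these symbols alone and 18 passed the filter on low signal, which left 9 genes among 13796 tested. In the rat, 13 probe sets carried one and all 13 passed, which left 9 genes among 11010. The mouse array had no probe set for Lamp3 alone, since its single Lamp3 probe set is also annotated to Ppid, and Cxcl15 is a mouse symbol with no rat probe set.

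Chloroprene, a chlorinated diene used to make synthetic rubber, was given as vapour in air to female B6C3F1/Crl mice and female F344/NCrl rats, adults of 10 weeks at the start (the strain field of the rat labels reads F334/NCrl). Animals breathed it for 6 h a day on 5 days a week and were killed after 5 exposure days or after 15 exposure days, on day 19. Mice had inhaled 0.3, 2, 13 or 90 ppm for 5 or 15 days, or 0 ppm for 5 days, and rats 5, 30, 90 or 200 ppm for 5 or 15 days. Each of the 17 groups held 5 animals with 1 array each, made from the right lung kept in RNAlater. A mouse group at 0 ppm for 15 days and a rat group at 0 ppm were not analysed here, so those comparisons start from 0.3 ppm in mice and 5 ppm in rats and cannot show what the lowest concentration itself did.

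Type 2 cells sit in the walls of the alveoli, secrete surfactant and can replace the flat type 1 cells that carry gas exchange. Surfactant is a film of phospholipid and a few proteins that lowers surface tension and keeps the alveoli open. It is stored in lamellar bodies, which fuse with the cell surface. Sftpb and Sftpc encode small hydrophobic proteins that act on the film itself, and Sftpa1 and Sftpd encode collectins that bind microbes. ABCA3 pumps phospholipid into lamellar bodies, LAMP3 lies in their membrane, LPCAT1 remodels phosphatidylcholine toward its saturated form, and SLC34A2 takes up phosphate. CXCL15, also called lungkine, is a neutrophil chemokine of mouse lung epithelium, and ETV5 is an ETS transcription factor downstream of fibroblast growth factor signalling that mouse type 2 cells need to keep their identity. The lung is a mixture of cell types, so fewer type 2 cells and less of a transcript per type 2 cell cannot be told apart in these data.

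The members were among the brightest probe sets of both arrays. Sftpc, the marker of this cell type, had a mean log2 signal of 15.26 in mice and 15.04 in rats, second from the top of either table. These means lay 0.08 below the highest signal of any probe set in the mouse table (15.34) and 0.10 below that in the rat table (15.14). Sftpa1 followed at 14.71 in the mouse and 14.56 in the rat. In the mouse, Sftpd, Sftpb, Cxcl15 and Slc34a2 averaged between 14.06 and 14.38, and Lpcat1, Abca3 and Etv5 averaged 13.18, 12.75 and 11.71. In the rat, Sftpb, Slc34a2 and Sftpd averaged between 13.64 and 14.04, Lamp3, Abca3 and Lpcat1 between 11.78 and 12.53, and Etv5 9.47. Probe sets differ in their response, so the order of these signals is not an order of transcript levels.

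Signals near the top of the scale had little spread between animals. Within groups, Sftpc had an SD of 0.027 in mice and 0.026 in rats, the smallest of all tested genes in either species. Over all genes the median within-group SD was 0.158 in mice and 0.175 in rats. For the 64 mouse genes and 23 rat genes with a mean of at least 14, it was 0.053 and 0.048. At the other end, mouse Etv5 had an SD of 0.28 and rat Lamp3 one of 0.50, above those of 88.7% and 96.4% of the genes. How far the top of the scale limits the changes of Sftpc and the other bright members was not tested.

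The promoters in RefSeq's table for GRCm38.p6, each 250 bases before to 50 bases after a transcript start, matched 8 of the 10 members with 9 promoters. They were searched on both strands for the letters CTCAAG, a core of sites bound by NKX2-1, the transcription factor that directs lung epithelial genes. The letters occurred in 3 of the 9 member promoters and in 15.9% of 32851 mouse promoters. The 3 promoters are shown, with the letters in capitals, because they belong to a gene that did not pass the test at 90 ppm (Sftpb) and to a pair that fell after 5 days (Sftpa1 and Cxcl15). They lie on the plus strand at chr6:72304360-72304659 (Sftpb), chr14:41131538-41131837 (Sftpa1) and chr5:90794284-90794583 (Cxcl15).
Sftpb: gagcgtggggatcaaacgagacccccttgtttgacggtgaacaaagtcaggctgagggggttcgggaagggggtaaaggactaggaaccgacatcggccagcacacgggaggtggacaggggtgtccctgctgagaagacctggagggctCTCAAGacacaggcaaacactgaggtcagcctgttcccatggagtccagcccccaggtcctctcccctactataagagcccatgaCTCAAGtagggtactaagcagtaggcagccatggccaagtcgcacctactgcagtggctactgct
Sftpa1: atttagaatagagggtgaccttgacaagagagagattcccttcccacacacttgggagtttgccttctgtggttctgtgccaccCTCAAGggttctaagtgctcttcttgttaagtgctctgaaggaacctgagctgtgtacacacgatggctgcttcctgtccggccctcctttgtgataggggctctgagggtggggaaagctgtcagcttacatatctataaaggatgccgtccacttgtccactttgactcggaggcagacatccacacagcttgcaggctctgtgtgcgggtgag
Cxcl15: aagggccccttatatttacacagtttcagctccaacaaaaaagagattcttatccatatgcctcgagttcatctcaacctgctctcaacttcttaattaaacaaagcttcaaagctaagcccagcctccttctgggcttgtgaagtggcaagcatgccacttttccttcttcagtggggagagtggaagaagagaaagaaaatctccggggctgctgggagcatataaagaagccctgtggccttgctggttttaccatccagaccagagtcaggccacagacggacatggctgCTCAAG
In Sftpb the letters begin at bases -100 and -15 from the transcript start, in Sftpa1 at base -166, and in Cxcl15 at base 45 after it. The ETS core CGGAAG was in none of the 9 and in 16.9% of all promoters, and the GATA letters AGATAA in none of the 9 and in 11.2%. The FOXA letters TGTTTAC were in the promoter of Lamp3 and in 1 of the 2 of Etv5, against 3.65% of all promoters, and the CEBP palindrome TTGCGCAA was in that of Slc34a2, against 0.183%. The looser CEBP letters TTGCNNAA, where N is any base, were in 1 of the 9, at that same Slc34a2 site, against 10.8% of all promoters. A match describes these letters in this window and is no evidence of a bound factor.

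In mice, 90 ppm was compared with 0 ppm after 5 days. Of the 9 measured members, Cxcl15, Etv5, Lpcat1 and Sftpa1 fell, none rose, and Sftpb, Sftpc, Sftpd, Slc34a2 and Abca3 did not pass the test. Of all tested genes, 16.3% passed in this comparison (adjusted p below 0.05 in limma over all genes), and 7.35% of all tested genes passed with a lower signal. The members' median change was -0.12 on the log2 scale and that of all genes 0.01.

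Cxcl15 had log2 signals of 13.93, 13.95, 13.95, 14.02 and 14.05 in mice at 90 ppm, against 14.43, 14.43, 14.51, 14.53 and 14.57 in mice at 0 ppm. The groups did not overlap, and every exposed animal was well below the lowest control. The change was -0.51 ± 0.05 (standard error of the fit, n = 5 each, adjusted p = 1.1e-09), a 1.43-fold fall. A second, dimmer Cxcl15 probe set averaged 12.97 ± 0.12 at 90 ppm and 13.88 ± 0.12 at 0 ppm (SD, n = 5 each), and its change was -0.91 ± 0.08 (adjusted p = 5.6e-11 over all probe sets).

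Etv5 had log2 signals of 11.23, 11.30, 11.38, 11.40 and 11.48 at 90 ppm, against 11.83, 11.84, 11.93, 11.94 and 12.00 at 0 ppm. These groups did not overlap either. The change was -0.55 ± 0.17 (adjusted p = 0.018), and the other 2 Etv5 probe sets, with means near 10, gave -0.76 ± 0.18 and -0.83 ± 0.21 and also passed. The SD of Etv5 was 0.38 in mice at 0.3 ppm, against 0.07 in mice at 0 ppm. With the mice at 0.3 ppm in place of those at 0 ppm the change was -0.28 and did not pass, and neither did the -0.45 obtained after adjustment for RNA integrity with 2 controls left.

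Lpcat1 had log2 signals of 12.65, 12.69, 12.79, 12.90 and 13.22 at 90 ppm, against 13.09, 13.13, 13.15, 13.18 and 13.59 at 0 ppm. The groups overlapped through 1 exposed animal, which was higher than 4 of the 5 controls. The change was -0.38 ± 0.12 (adjusted p = 0.028), and 2 of its 4 kept probe sets passed when every probe set was tested. The call was lost without any one of animals 105, 166, 167 and 168, when the change was between -0.36 and -0.29, and with the 0.3 ppm mice in place of the controls, at -0.20. It was also lost after adjustment for RNA integrity, at -0.20, and with the dimmest of its probe sets, at -0.11.

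Among the surfactant proteins, Sftpa1 had log2 signals of 14.58, 14.59, 14.60, 14.64 and 14.69 at 90 ppm, against 14.72, 14.72, 14.75, 14.76 and 14.77 at 0 ppm. Every exposed animal was below every control, but the gap was small. The change was -0.12 ± 0.04 (adjusted p = 0.026), a 1.09-fold fall. Its second probe set gave -0.15 ± 0.06 and did not pass (adjusted p = 0.11). The Sftpa1 call was lost without any one of animals 102, 104, 165, 167 and 168, with changes of -0.12 to -0.11, and after quantile normalization, at -0.08, or adjustment for RNA integrity, at -0.12. Sftpc ranged from 15.23 to 15.29 at 90 ppm and from 15.28 to 15.33 at 0 ppm, a change of -0.03 ± 0.03. The change was -0.10 ± 0.08 for Sftpb, 0.08 ± 0.05 for Sftpd and -0.07 ± 0.05 for Slc34a2.

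Abca3 had log2 signals of 12.43, 12.49, 12.50, 12.52 and 12.74 at 90 ppm, against 12.62, 12.70, 12.78, 12.80 and 12.91 at 0 ppm. Of the exposed animals, 4 were below every control, but the change of -0.23 ± 0.09 did not pass (adjusted p = 0.091). Its other probe sets gave -0.19 ± 0.11 and -0.15 ± 0.13. Without animal 165, the highest of the exposed group, the change was -0.28 and passed. Of the members, 3 of 9 had groups that did not overlap, all lower at 90 ppm, against 6.22% of all genes with such a fall and 14.2% in either direction. The probe set shared by Lamp3 and Ppid averaged 12.09 ± 0.48 at 90 ppm and 12.59 ± 0.15 at 0 ppm (SD, n = 5 each) and was not tested.

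**Figure D1:**
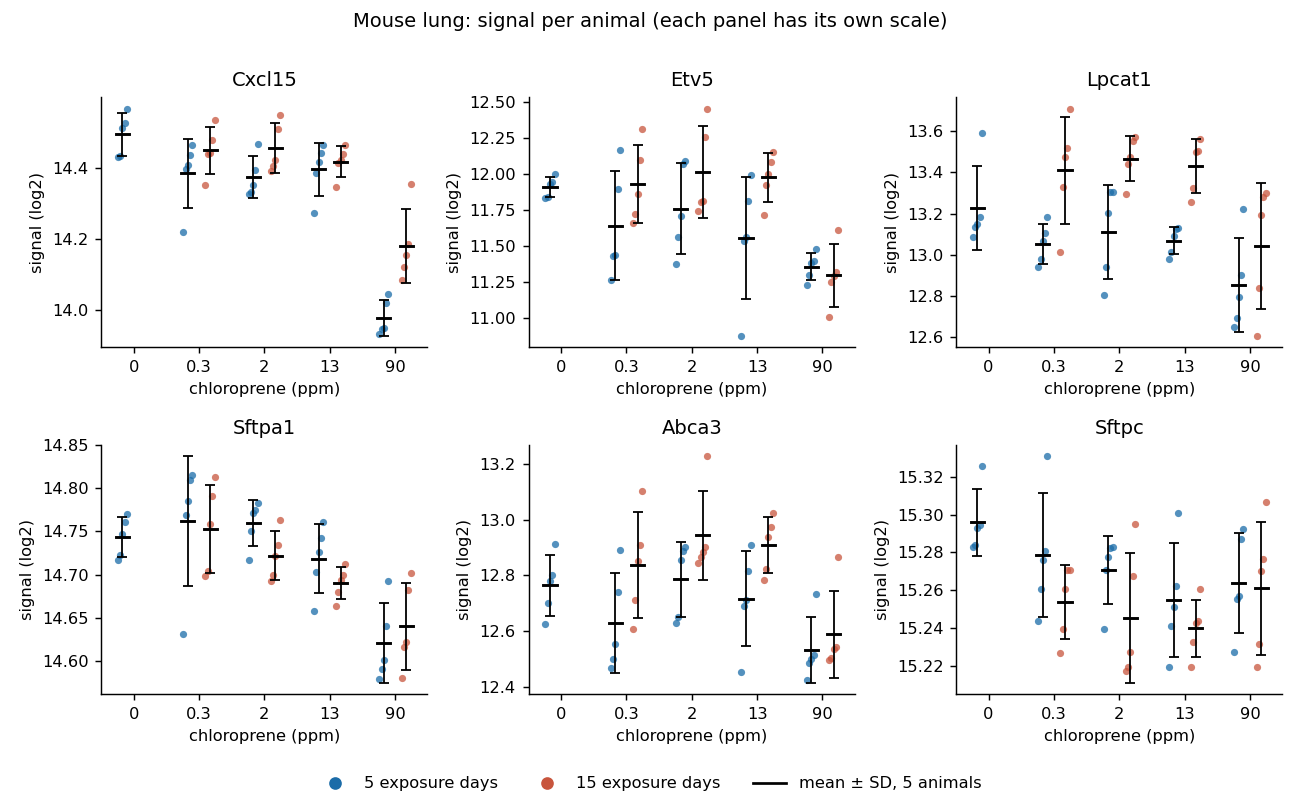
Log2 signal (vertical axes, each with its own scale) of 6 members in mouse lung by chloroprene concentration in ppm (horizontal axes). Points are animals, blue after 5 and red after 15 exposure days, and black marks are the mean ± SD of 5 animals. The Cxcl15 points at 90 ppm lie between 13.93 and 14.05 after 5 days, apart from all other 5-day groups, while the whole Sftpc panel spans 15.22 to 15.33.

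No member passed at the lower concentrations after 5 days, all read against the same 0 ppm mice. At 13 ppm, 0 of 9 members passed against 1.3% of all genes, at 2 ppm 0 of 9 against 1.2%, and at 0.3 ppm 0 of 9 against 0% (514 genes had an unadjusted p below 0.05 there, and that of Cxcl15 was 0.043). Cxcl15 averaged 14.39 ± 0.10, 14.38 ± 0.06 and 14.40 ± 0.07 at 0.3, 2 and 13 ppm (SD, n = 5 each), against 14.49 ± 0.06 at 0 ppm. The changes were -0.11, -0.12 and -0.10 with standard errors of 0.05, so these groups sat close together, slightly below 0 ppm. The larger step in the means was between 13 and 90 ppm, which were not tested against each other. Etv5 averaged 11.64, 11.76 and 11.55 at 0.3, 2 and 13 ppm, with SDs of 0.38, 0.31 and 0.42. Its changes against 0 ppm there were -0.27, -0.15 and -0.36, none of which passed.

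The trend over the ranks of the 5 concentrations was tested as well. Cxcl15 fell by 0.10 per step of concentration (log2, adjusted p = 2.1e-08), Etv5 by 0.12 (adjusted p = 0.024) and Sftpa1 by 0.03 (adjusted p = 0.019), so 3 of 9 members passed, all downward, against 15.6% of all genes and 7.05% downward. Lpcat1, at -0.07 per step, did not pass (adjusted p = 0.060). The Etv5 trend was lost without animal 102 or 169, at -0.11 per step, and that of Lpcat1 passed without animal 165, at -0.09.

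After 15 days, 90 ppm was compared with 0.3 ppm. The means of these groups use none of the animals titled 5 days, but all mouse groups share one estimate of the spread. For some of these mice the duration field gives 5 days. Cxcl15 and Etv5 fell, none of the 9 members rose, and 7.97% of all genes passed, 3.29% with a lower signal. The members' median change was -0.11 and that of all genes -0.01. Cxcl15 had log2 signals of 14.09, 14.12, 14.15, 14.19 and 14.35 at 90 ppm, against 14.35, 14.44, 14.44, 14.48 and 14.53 at 0.3 ppm. Of the exposed mice, 4 lay below the whole 0.3 ppm group and the highest just reached it. The change was -0.27 ± 0.05 (adjusted p = 0.00056), and that of the dimmer probe set was -0.45 ± 0.08 (adjusted p = 0.00026).

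Etv5 had log2 signals of 11.00, 11.25, 11.29, 11.32 and 11.61 at 90 ppm for 15 days, against 11.66, 11.72, 11.86, 12.09 and 12.31 at 0.3 ppm. The groups did not overlap, as for 4.37% of all genes in this comparison and 2.1% with a fall. The change was -0.63 ± 0.17 (adjusted p = 0.013), a 1.55-fold fall. Of the other 2 Etv5 probe sets, one fell by 0.59 and passed, and the other changed by -0.57 and did not (adjusted p = 0.10). The Etv5 call was lost without animal 125, at -0.54. It was also lost without the mice whose duration field gives 5 days, at -0.64 with 2 animals left at 90 ppm and 2 at 0.3 ppm, and without the mice with a letter after their number, at -0.56.

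Lpcat1 had log2 signals of 12.61, 12.84, 13.19, 13.28 and 13.30 at 90 ppm for 15 days, against 13.01, 13.33, 13.48, 13.52 and 13.71 at 0.3 ppm. The groups overlapped, and the exposed animals split into a lower pair and a higher 3. The change was -0.37 ± 0.12 (adjusted p = 0.055), although 3 of its 4 kept probe sets, at -0.50 to -0.47, passed when every probe set was tested. Sftpa1 changed by -0.11 ± 0.04 (adjusted p = 0.073) and Abca3 by -0.25 ± 0.09 (adjusted p = 0.11). Their 5-day values of -0.12 and -0.23 were against 0 ppm instead. Read against 0.3 ppm at both times, the change differed between 15 and 5 days by 0.03 for Sftpa1 and by -0.15 for Abca3. Sftpc, Sftpb, Sftpd and Slc34a2 changed by between -0.08 and 0.01. The Lpcat1 change passed without any one of animals 128, 177, 178 and 181, at -0.47 to -0.40, that of Sftpa1 without animal 181, at -0.13, and that of Abca3 without animal 177, at -0.32.

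At 13 and 2 ppm for 15 days no member passed, against 0.326% and 0.109% of all genes. Over the ranks of the 4 concentrations, Cxcl15 fell by 0.08 per step (adjusted p = 0.00060) and Etv5 by 0.19 (adjusted p = 0.016). These were 2 of 9 members, against 7.61% of all genes in either direction and 2.9% of all genes downward. Against 0.3 ppm, Cxcl15 changed by 0.01, -0.03 and -0.27 at 2, 13 and 90 ppm, and Etv5 by 0.08, 0.05 and -0.63. Both slopes thus came mainly from the highest concentration, and neither gene showed a clear fall below it. The Etv5 trend was lost without animal 125, at -0.17. The trend of Lpcat1 passed without any one of animals 128, 177 and 178 (-0.14 to -0.13), that of Abca3 without animal 177 (-0.10) and that of Sftpa1 without animal 181 (-0.04).

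The 2 times were compared at 90 ppm directly. Age differed between these groups too, and processing may have, so exposure time, age and processing cannot be told apart. The duration field of some of the 15-day mice gives 5 days. Cxcl15 averaged 14.18 ± 0.10 after 15 days and 13.98 ± 0.05 after 5 days (SD, n = 5 each), and the lowest 15-day animal was above the highest 5-day animal, as for 0.486% of all genes (1.07% did not overlap in either direction). The change of 0.20 ± 0.05 did not pass (adjusted p = 0.087, where 0.123% of all genes passed). The dimmer probe set averaged 13.34 ± 0.17 after 15 days and 12.97 ± 0.12 after 5 days. With this probe set in place of the brighter one the change was 0.36 and passed. The change at 90 against 0.3 ppm differed between 15 and 5 days by 0.14 ± 0.07 for Cxcl15 and by -0.35 ± 0.24 for Etv5, and none of the 9 members passed this test, against 0.0435% of all genes.

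**Figure D2:**
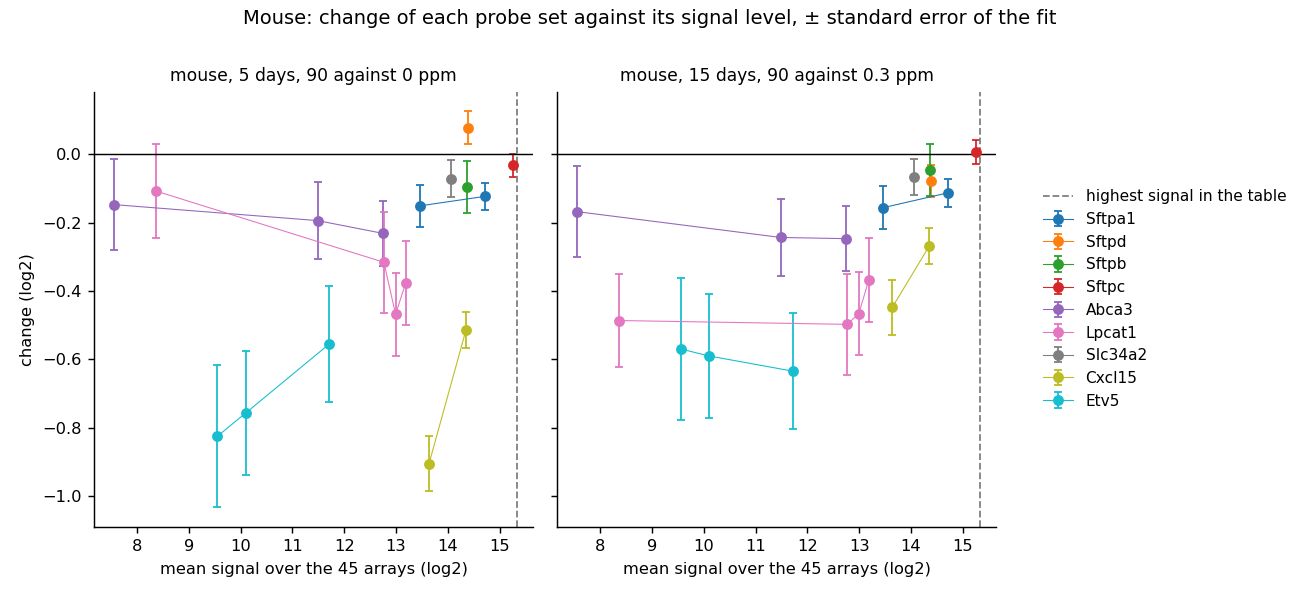
Change on the log2 scale at 90 ppm (vertical axis, ± standard error of the fit) of each kept mouse probe set of a member against its mean log2 signal over the 45 arrays (horizontal axis), after 5 days on the left and 15 days on the right. Lines join probe sets of one gene, and the dashed line marks the highest signal in the table, 15.34. Both Cxcl15 probe sets lie below 0, the dimmer one lower (-0.91 against -0.51 after 5 days), and the Sftpc point beside the dashed line is near 0.

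Markers of other cell types were read in the same comparisons. After 5 days at 90 ppm, 6 of 9 measured ciliated cell markers and 4 of 11 club cell markers rose, and 6 of 7 B and T cell markers fell. The mean log2 signal of the ciliated markers ranged from 9.82 to 10.24 at 90 ppm and from 9.19 to 9.58 at 0 ppm, and that of the B and T cell markers from 7.57 to 8.12 at 90 ppm and from 8.80 to 9.01 at 0 ppm. Of 13 type 1 cell markers 2 fell, and their mean ranged from 12.91 to 13.11 at 90 ppm and from 13.03 to 13.24 at 0 ppm. Of 8 endothelial markers 2 fell after 5 days, and their mean ranged from 11.70 to 11.90 at 90 ppm and from 11.89 to 12.11 at 0 ppm. None of the 8 passed after 15 days, when it ranged from 11.69 to 11.85 at 90 ppm and from 11.71 to 12.10 at 0.3 ppm. After 15 days at 90 ppm, 5 of 9 ciliated and 2 of 11 club cell markers rose and 2 of 13 type 1 cell markers fell. No measured B and T cell marker passed there. Of 11 alveolar macrophage markers 2 fell at either time. The part of these shifts in the members' changes was not tested.

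The other genes of the type 2 cell were read as 5 lists. Of all genes tested at 90 ppm, 8.99% rose and 7.35% fell after 5 days, and 4.68% rose and 3.29% fell after 15 days. Of 16 transcription factors of type 2 cells, Foxa2 (0.50 ± 0.12), Elf3 (0.44 ± 0.11) and Grhl2 (0.28 ± 0.07), all epithelial regulators, rose after 5 days at 90 ppm and none fell. The other Grhl2 probe sets changed by 0.11 and 0.05 and did not pass. Nkx2-1 changed by -0.11 ± 0.16. After 15 days none of the 16 passed. The median change of the list was 0.12 after 5 days and -0.06 after 15 days.

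Of 15 measured genes of fibroblast growth factor signalling, the pathway above Etv5, 3 fell and none rose after 5 days at 90 ppm. They were the receptor Fgfr2 (-0.35 ± 0.08, adjusted p = 0.0011 over all probe sets) and 2 feedback inhibitors that the pathway itself induces, Spry4 (-0.39 ± 0.13) and the phosphatase Dusp6 (-0.36 ± 0.11). The list's median change was -0.14 after 5 days. After 15 days only Fgfr2 of these 15 passed (-0.33 ± 0.08), with Spry4 at -0.38 ± 0.13 and Dusp6 at -0.14 ± 0.11, and the median was -0.09. A second Fgfr2 probe set also fell at both times (-0.48 and -0.34), while the third changed by -0.04 and -0.11.

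Of 23 measured genes of surfactant protein processing and lamellar bodies, 3 rose and 4 fell after 5 days at 90 ppm, and 3 rose and 3 fell after 15 days. Cathepsin H (Ctsh), a protease that cuts surfactant protein precursors, rose by 0.47 ± 0.06 after 5 days and 0.25 ± 0.06 after 15 days. The cholesterol exporter Abca1 rose by 0.83 ± 0.19 at both times. Carboxypeptidase M (Cpm), an enzyme of the epithelial cell surface, fell by 0.91 ± 0.13 after 5 days and by 0.56 ± 0.13 after 15 days. The sterol exporter Abcg1 fell by 0.30 ± 0.08 after 5 days, but its other probe set changed by 0.18 ± 0.09. P2ry2, the nucleotide receptor that triggers surfactant release, fell by 0.51 ± 0.12 after 15 days.

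Of 39 measured genes of phosphatidylcholine and surfactant lipid synthesis, 2 rose and 4 fell after 5 days at 90 ppm, a share near the 16.3% of all genes, and 1 rose and 9 fell after 15 days. Elovl1, an elongase of very long fatty acids, fell by 0.81 ± 0.12 after 5 days and by 0.79 ± 0.12 after 15 days, and all 4 of its probe sets fell at both times. Fabp5, a fatty acid carrier, fell by 0.48 ± 0.08 after 5 days and by 0.29 ± 0.08 after 15 days. Lpin1 and Lpin2, which make diacylglycerol, rose by 0.53 ± 0.16 and 0.46 ± 0.10 after 5 days. After 15 days Fasn, the fatty acid synthase, fell by 0.58 ± 0.13, Acly, which supplies its acetyl units, by 0.35 ± 0.09, and Gpam, the first enzyme of glycerolipid synthesis, by 0.24 ± 0.06. The median change of the list was -0.02 after 5 days and -0.11 after 15 days, beside 0.01 and -0.01 for all genes.

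Of 37 other measured genes of type 2 cells, 4 rose and 12 fell after 5 days at 90 ppm, and 4 rose and 10 fell after 15 days. Acoxl, which resembles acyl-CoA oxidases, fell by 1.26 ± 0.16 after 5 days and by 1.00 ± 0.16 after 15 days, and Bex2 fell by 0.63 ± 0.09 after 5 days. Zdhhc3, a palmitoyltransferase, fell by 0.49 ± 0.10 and Dram1, a lysosomal membrane protein, by 0.31 ± 0.07 after 15 days, and Retnla, a secreted resistin-like protein, rose by 1.76 ± 0.36. The list's median change was -0.11 after 5 days and -0.17 after 15 days. Ctsh, Fabp5, Fasn, Napsa, Nkx2-1 and Scd1 are each on 2 of the lists.

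In rats, 200 ppm was compared with 5 ppm after 5 days. Abca3 and Lpcat1 fell, and the other 7 members did not pass. In this comparison 36.3% of all genes passed, 31.6% with a lower signal and 4.68% with a higher one. The median change of all tested genes was -0.14, against -0.04 for the members. The medians of the rat arrays over all their probe sets lay between 7.25 and 7.32. The 2 of 9 members that passed are too few to be told apart from the share of all genes.

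Abca3 had log2 signals of 11.64, 11.69, 11.70, 11.74 and 11.74 in rats at 200 ppm for 5 days, against 11.75, 11.99, 12.08, 12.19 and 12.34 in rats at 5 ppm. Every animal at 200 ppm was below every animal at 5 ppm, though the lowest at 5 ppm was just above the highest at 200 ppm. The change was -0.37 ± 0.09 (adjusted p = 0.0030), which is -0.23 relative to the median gene, and its second probe set fell by 0.21 ± 0.08 (adjusted p = 0.047). Lpcat1 had log2 signals of 11.32, 11.42, 11.45, 11.56 and 11.58 at 200 ppm, against 11.65, 11.83, 11.88, 11.95 and 12.11 at 5 ppm. These groups did not overlap. The change was -0.42 ± 0.09 (adjusted p = 0.0017), or -0.28 relative to the median gene. With arrays centred on the median gene both still passed, and Sftpc passed as well, upward, at 0.16. Before centring the Sftpc change was 0.02, beside -0.14 for the median gene, so most of the 0.16 is the centring itself.

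Sftpd, the surfactant collectin, had log2 signals of 13.43, 13.57, 13.57, 13.58 and 13.59 at 200 ppm for 5 days, against 13.62, 13.67, 13.70, 13.73 and 13.75 at 5 ppm. The groups did not overlap, but the change of -0.14 ± 0.06 did not pass (adjusted p = 0.054) and equalled the median change of all genes. Without animal 222 it was -0.16 and passed. The groups of 3 of the 9 members did not overlap, all lower at 200 ppm, against 15.7% of all genes in either direction and 13.5% lower. Sftpc changed by 0.02 ± 0.03, Sftpa1 by -0.04 ± 0.04, Slc34a2 by 0.00 ± 0.05, Etv5 by -0.05 ± 0.12 and Lamp3 by 0.30 ± 0.30.

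At 90 ppm for 5 days, Abca3 was the one member that passed, against 23.6% of all genes and 19.5% with a lower signal, and at 30 ppm none passed, against 0% (1477 genes had an unadjusted p below 0.05). Abca3 had log2 signals of 11.75, 11.77, 11.78, 11.79 and 11.80 at 90 ppm. The lowest of them lay just below the lowest rat at 5 ppm and the other 4 within that group's range. The change was -0.29 ± 0.09 (adjusted p = 0.027), or -0.16 with arrays centred on the median gene, when it did not pass. It did not pass after adjustment for RNA integrity either, at -0.30. The call was also lost without any one of animals 217, 219, 250 and 251, at -0.29 to -0.23. Lpcat1 at 90 ppm changed by -0.24 ± 0.09 (adjusted p = 0.051) and passed without animal 222 or 249, at -0.30 and -0.28, as Sftpd did without animal 222, at -0.16. Over the ranks of the 4 concentrations, Lpcat1 fell by 0.14 per step (adjusted p = 0.00099), Abca3 by 0.13 (adjusted p = 0.0013) and Sftpd by 0.06 (adjusted p = 0.016), 3 of 9 members against 41.9% of all genes in either direction and 35.9% of all genes downward. The Sftpd trend was lost without animal 269, at -0.05, and was -0.01 with arrays centred on the median gene.

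After 15 days no rat member passed at any concentration. The share of all genes that passed was 0.817% at 200 ppm, 0.309% at 90 ppm and 1.66% at 30 ppm, and 0.59% for the trend. Abca3 had log2 signals of 11.82, 11.84, 12.01, 12.09 and 12.20 at 200 ppm for 15 days, against 11.84, 11.92, 11.97, 11.97 and 12.01 at 5 ppm. These groups overlapped throughout, and the change was 0.05 ± 0.09. Lpcat1 changed by -0.13 ± 0.09. Etv5 changed by 0.37 ± 0.12 (adjusted p = 0.12), with 9.53, 9.60, 9.62, 9.98 and 9.99 at 200 ppm against 9.24, 9.30, 9.41, 9.41 and 9.53 at 5 ppm, but its dimmer probe set, whose mean of 6.67 lay at the filter value, changed by -0.46 ± 0.16. The 2 Etv5 probe sets thus ran in opposite directions, and neither passed.

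For Abca3, the change at 200 against 5 ppm was higher after 15 days than after 5 days by 0.42 ± 0.12 (adjusted p = 0.037). It was the one member of 9 that passed this test of the difference, against 11.4% of all genes and 8.81% upward. It was 0.28 ± 0.13 for Lpcat1 (adjusted p = 0.088) and 0.42 ± 0.17 for Etv5 (adjusted p = 0.075). The median of all genes in this contrast was 0.15. Adjusted for RNA integrity or for the difference between 3' and 5' control probe sets, the Abca3 value was 0.40 and 0.39 and did not pass. It was also lost without any one of rats 217, 219, 221, 225, 227, 229, 265, 266, 268, 269, 277 and 282 (0.35 to 0.43), while Lpcat1 passed without rat 222 or 279 (0.34 and 0.33) and Etv5 without rat 279 or 281 (0.45 and 0.47). At 200 ppm, 15 days against 5 days, with age and perhaps processing differing too, passed for 0 of 9 members and 0.127% of all genes. Abca3 and Lpcat1 passed there without any one of rats 267, 279 and 281 (0.30 to 0.33 and 0.33 to 0.36), Etv5 without rat 279 or 281 (0.38 and 0.39) and Sftpd without rat 281 (0.16).

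**Figure D3:**
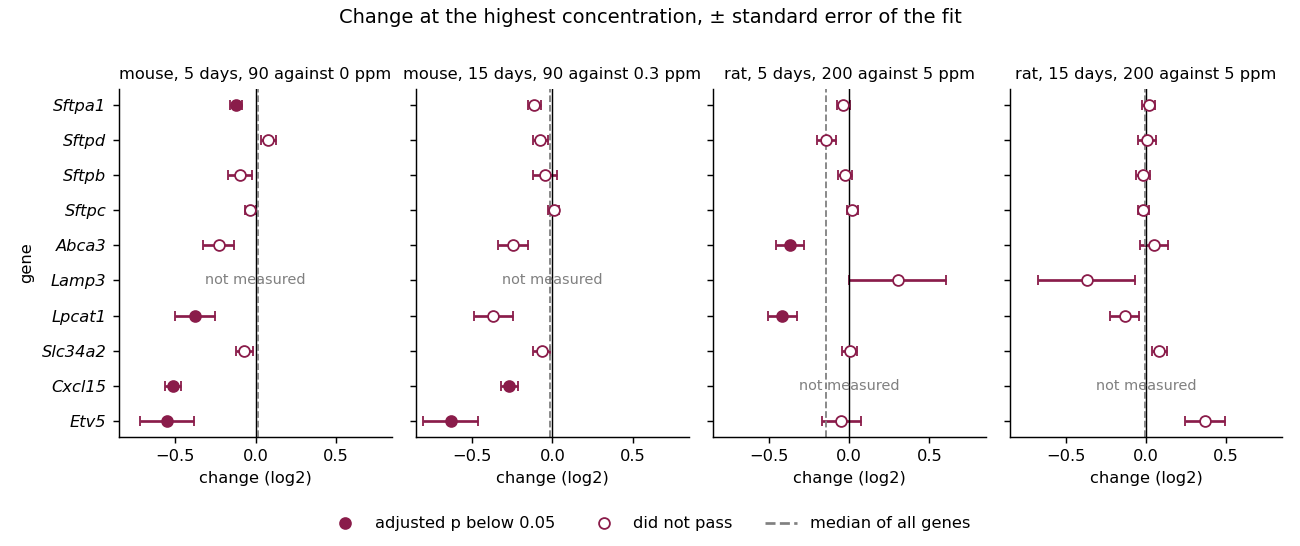
Change on the log2 scale (horizontal axes, ± standard error of the fit) of each member at the highest concentration, in mice after 5 and 15 days and in rats after 5 and 15 days. Filled points passed the test, open points did not, and the dashed line is the median of all genes, at -0.14 in the rat comparison after 5 days. The mouse panels share falls of Cxcl15 and Etv5, and the rat panels show falls of Abca3 and Lpcat1 after 5 days and none after 15 days.

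RNA integrity and the level of the arrays differed between the rat groups. After 5 days the RNA integrity number ranged from 7.1 to 8.7 at 200 ppm, where 4 rats had one. It ranged from 9.2 to 9.3 at 90 ppm and from 7.3 to 8.5 at 5 ppm. The median deviation of an array's genes from their means over all rat arrays was taken as its shift. After 5 days this shift averaged -0.08 at 200 ppm, -0.07 at 90 ppm and 0.06 at 5 ppm. Of 4 measured cardiac muscle markers 3 rose at 200 ppm for 5 days, and their mean log2 signal ranged from 5.96 to 8.56 there and from 5.49 to 6.64 at 5 ppm. Of 7 club cell markers 3 rose, and their mean ranged from 10.60 to 11.29 at 200 ppm and from 10.09 to 10.74 at 5 ppm. Of 8 fibroblast markers 3 rose, and their mean ranged from 11.42 to 11.54 at 200 ppm and from 11.01 to 11.30 at 5 ppm, without overlap. Their part in the members' changes was not tested. Abca3 and Lpcat1 passed at 200 ppm after adjustment for RNA integrity (-0.35 and -0.38) and for the difference between 3' and 5' control probe sets (-0.39 and -0.42).

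The 2 rat probe sets of Sftpb disagreed. The brighter one averaged 14.05 ± 0.03 at 200 ppm and 14.08 ± 0.05 at 5 ppm after 5 days (SD, n = 5 each). The dimmer one had log2 signals of 11.59, 11.77, 11.80, 11.90 and 11.96 at 200 ppm, against 9.21, 9.66, 10.44, 10.60 and 12.11 at 5 ppm. One animal at 5 ppm lay above all those at 200 ppm and the other 4 lay below them. The change of the dimmer probe set was 1.40 ± 0.33 at 200 ppm and 1.46 ± 0.33 at 90 ppm (adjusted p = 0.0035 and 0.0078 over all probe sets), and that of the brighter one -0.03 ± 0.04 and -0.07 ± 0.04. Within groups, the dimmer probe set correlated with the difference between 3' and 5' control probe sets at Pearson's r = -0.60 over 40 arrays, and the brighter one at -0.18. The arrays share their groups, so the correlation is a description.

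Lamp3 was the most variable rat member. Within groups it correlated with the difference between 3' and 5' control probe sets at Pearson's r = 0.47 over 40 arrays, again a description. It had log2 signals of 12.50, 12.65, 12.86, 12.94 and 12.97 at 200 ppm for 5 days, against 11.66, 12.33, 12.62, 12.78 and 13.02 at 5 ppm. At 200 ppm for 15 days it had 11.33, 11.90, 12.60, 12.80 and 12.99, against 12.11, 12.41, 12.88, 12.90 and 13.15 at 5 ppm. The groups overlapped at both times. The changes were 0.30 ± 0.30 and -0.37 ± 0.30, and neither passed.

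**Figure D4:**
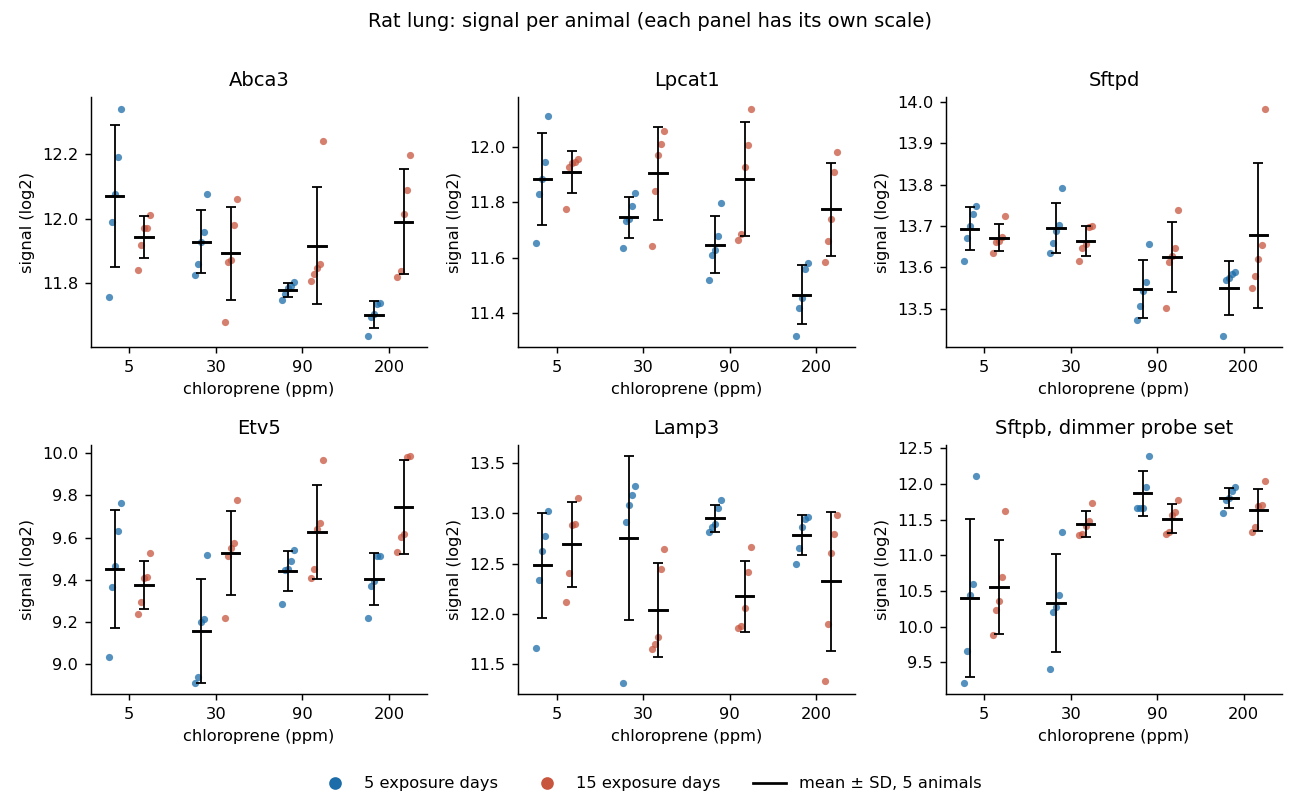
Log2 signal (vertical axes, each with its own scale) of 5 members and of the dimmer Sftpb probe set in rat lung by chloroprene concentration in ppm (horizontal axes). Points are animals, blue after 5 and red after 15 exposure days, and black marks are the mean ± SD of 5 animals. After 5 days Lpcat1 lies between 11.32 and 11.58 at 200 ppm, below the 11.65 to 12.11 of the rats at 5 ppm, while the dimmer Sftpb probe set spans 9.21 to 12.11 at 5 ppm.

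Other type 2 genes of the rat were read by the same lists after 5 days at 200 ppm, where 4.68% of all genes rose and 31.6% fell. Of 14 measured transcription factors 2 rose and 5 fell, among them Nkx2-1 (-0.30 ± 0.07) and Cebpa (-0.45 ± 0.12), a factor of type 2 cell maturation. Of 13 genes of fibroblast growth factor signalling 1 rose and 3 fell. Fgf7, a growth factor made by the mesenchyme, rose by 0.47 ± 0.10 and the receptor Fgfr2 fell by 0.20 ± 0.08. Of 23 genes of protein processing and lamellar bodies 10 fell and none rose, with Napsa, the protease napsin A, at -0.24 ± 0.07 and Rab38, a small GTPase of lamellar bodies, at -0.42 ± 0.11. Of 36 lipid genes 2 rose and 17 fell, with Lpgat1, an acyltransferase, at 0.95 ± 0.17 and Pgs1, an enzyme of phosphatidylglycerol synthesis, at -0.40 ± 0.09. Of 30 other type 2 genes 1 rose and 12 fell. The list medians ran from -0.20 to -0.09, beside -0.14 for all genes, and after 15 days 2 lipid genes, Lpgat1 and Gpam, rose and no other gene of the 5 lists passed.

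The members varied among themselves in different ways from animal to animal. Over the 45 mouse arrays, after the group means were taken out, Abca3 and Etv5 had a Pearson r of 0.81, Abca3 and Slc34a2 one of 0.72 and Sftpc and Cxcl15 one of 0.72. Abca3 and Sftpa1 had one of -0.25, and the median over the 36 pairs was 0.14. Over the 40 rat arrays, Abca3 and Lpcat1 had 0.79, and Lamp3 ran against Etv5 (-0.69), Abca3 (-0.66) and Lpcat1 (-0.58), with a median over 36 pairs of 0.31. Values of one array share its RNA and its normalization, so these are descriptions.

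By Pearson's r over all arrays of a species, the genes most like a member were named for each member that passed at the highest concentration. In the mouse these were Epb41l5 (0.91), Gsap (0.88) and Lrp2 (0.86) for Cxcl15, and Mmp11 (0.92), Loxl1 (0.91) and Tnfrsf19 (0.91) for Etv5. For Lpcat1 they were Sh3rf2 (0.87), Itgb6 (0.86) and Pknox1 (0.86), and for Sftpa1 Tinag (0.82), Ppp1r14c (0.82) and Fabp1 (0.81). In the rat they were Alpl (0.93), Stard10 (0.92) and Lamb3 (0.92) for Abca3, and Prkcd (0.93), Mcub (0.92) and Crym (0.92) for Lpcat1. For the mean of all members they were Mmp11, Loxl1 and Fzd2 in the mouse (0.92 to 0.93) and Dram1, Rbis and S100g in the rat (0.76 to 0.77). Members were not scaled in this mean, so those of larger spread weigh more. The largest within-group SDs were those of Etv5 in the mouse (0.28) and Lamp3 in the rat (0.50). The values of r cover 45 mouse and 40 rat arrays, which share their groups.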

How the data were processed

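The deposited tables hold 1 log2 signal per probe set and array, summarized and normalized by the authors with a method not given in the sources used here. Array medians lay between 7.27 and 7.37 for mice and 7.25 and 7.32 for rats, and precision is limited by how many arrays there are. Probe sets with exactly 1 symbol in the array annotation were kept where their signal exceeded the 40th percentile of the species' table (6.67 and 6.65) on at least 5 arrays, and the brightest one stood for its gene. Each species was fitted with limma 3.58.1 in R 4.3.3 (a mean per group, empirical Bayes), with Benjamini-Hochberg adjustment over all genes, two-sided, at 0.05, for 23 comparisons. The fit was run on simulated data with known changes and independent noise. Those data held no shift of whole arrays and no upper limit of signal, so the fit was not tested for either. Animals were grouped by title. For 9 mice the duration field conflicts with the title, and 7 arrays have no RNA integrity number.

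The members, lists and tests were chosen with earlier results of these data known. Named list genes are up to 4 per list by smallest p among those that passed at the highest concentration, with their other time beside it. Mouse Nkx2-1 was added after its values were seen. Genes most like a member are the 3 with the highest Pearson r. Alternatives were other filters, normalizations, probe set rules, covariates, references and subsets of animals.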

Additional observations from a re-analysis of the deposited data

Results flagged for a closer look

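In 16 of the 153 groups of 5 values of a member, the highest or lowest animal stood apart from the others, where chance gives about 1 in 20. After 5 days at 0.3 ppm, mouse 118 was lowest for 4 members, at 14.6311 for Sftpa1, 14.2338 for Sftpb, 14.2328 for Sftpd and 14.2196 for Cxcl15. For Sftpc, mouse 103 (0 ppm, 5 days) was highest at 15.326, mouse 133 (2 ppm, 5 days) lowest at 15.2397 and rat 279 (200 ppm, 15 days) highest at 15.0723. For Sftpd, rat 282 (200 ppm, 15 days) was highest at 13.9846 and rat 269 (200 ppm, 5 days) lowest at 13.4345. For Abca3, the highest were mouse 142 (2 ppm, 15 days) at 13.2269, mouse 177 (90 ppm, 15 days) at 12.8649, mouse 165 (90 ppm, 5 days) at 12.7352 and rat 258 (90 ppm, 15 days) at 12.2415. For Lamp3, rat 239 (30 ppm, 5 days) was lowest at 11.3108. For Lpcat1, mouse 105 (0 ppm, 5 days) was highest at 13.5903 and rat 229 (5 ppm, 15 days) lowest at 11.7753. The sample titles of rats 239, 269 and 282 have another form than those of the other rats. No fit left these rats out together, and a link between title form and signal was not tested.

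The change of Abca3 at 200 against 5 ppm in the rat differed between 15 and 5 days by 0.4177 (log2), in limma's test of the difference itself.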

How the results depend on the processing

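Of 207 pairs of a member and a comparison, 161 passed under no setting. Cxcl15 at 90 ppm and in both trends, and Abca3 and Lpcat1 in the rat after 5 days at 200 ppm and in the trend, kept their call under every alternative run. The number of members that passed moved by over 1.5 times as follows, and the cause was not tested. Mouse, 5 days, 90 ppm: 4 members, against 2 with each gene's dimmest probe set, 1 with the RNA integrity number as covariate (2 animals left at 0 ppm) and 2 with 0.3 ppm in place of 0 ppm; the trend gave 3, against 1 with that covariate. Mouse, 15 days, 90 ppm: 2, against 1 without the mice of conflicting duration and 1 without lettered numbers; the trend gave 2, against 1 in both cases, 1 with the dimmest and 4 with the mean of all probe sets. Mouse, 90 ppm, 15 against 5 days: 0, against 1 with the mean or the dimmest probe set (Cxcl15 higher). Rat, 5 days, 90 ppm: 1, against 2 with a 60th percentile filter, quantile normalization, every probe set or arrays of the same time only, 3 with the mean of all probe sets, the 3' to 5' covariate or a variance trend with robust moderation, and 0 with the integrity covariate or centred arrays. Centring each array on its median gene was chosen after seeing the data. Rat, 5 days, trend: 3, against 5 with the dimmest or every probe set. Rat, 15 days: 0, against 1 with centred arrays at 200 ppm and in the trend (Etv5 higher) and 1 at 30 ppm with robust moderation (Sftpb lower). Rat difference between times: 1, against 0 with either covariate. Rat, 200 ppm, 15 against 5 days: 0, against 1 with a 60th percentile filter (Lpcat1 higher).

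Sftpb in the rat after 5 days turned from below 0 to 0.685 with the mean of its probe sets and 1.3988 with the dimmer one at 200 ppm, 0.6951 and 1.4616 at 90 ppm, and 0.2784 and 0.5732 per step of the trend. After 15 days at 30 ppm it was -0.1319, against 0.3757 with the mean and 0.8832 with the dimmer one, neither of which passed. Etv5 in the rat trend after 5 days turned to -0.1476 with the dimmer probe set.

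Leaving out 1 animal at a time gave 2 to 4 members in the mouse after 5 days at 90 ppm (2 without animal 167 or 168) and 2 to 4 in that trend. After 15 days it gave 1 to 4 at 90 ppm (4 without 177 or 181, 1 without 125) and 1 to 4 in the trend (4 without 177, 1 without 125). In the rat after 5 days it gave 2 to 3 at 200 ppm, 0 to 3 at 90 ppm (0 without 217, 219, 250 or 251, 3 without 222, 2 without 249) and 2 to 3 in the trend. The rat difference between times gave 0 to 3, with Abca3 passing in 8 of 20 fits, and 200 ppm at 15 against 5 days gave 0 to 4 (3 without 279, 4 without 281, 2 without 267). The other comparisons gave 0 throughout. No paired analysis was possible because animal numbers are not shared between groups.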
